A study of Homo sapiens with 12 samples.

Results

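The genes for 10 subunits of the human TIP60 complex, KAT5, TRRAP, BRD8, DMAP1, EPC1, EPC2, ING3, MBTD1, YEATS4 and VPS72, were examined for H2A.Z and acetylated H2A.Z (H2A.Zac) in cells in which TRRAP was attached to the complex or detached from it. All regions listed by the authors over each gene body plus 5 kb to each side were taken, which gave 82 of the 158028 regions of all lists, at 10 of the 20046 protein-coding genes of the annotation. The genes lie on 8 chromosomes, and none shares a locus with another.

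The samples were cells of K562, a line from human chronic myeloid leukemia, whose endogenous EP400 was tagged on both alleles with a dTAG degron. The cells were complemented from the AAVS1 locus with WT EP400 or with EP400 without its SANT and HD domains, which hold TRRAP (ΔTRRAP). Both lines, WT included, were treated with 500 nM of the degrader dTAGV-1 for 24 h, and each was represented by 1 clone, so that clone and EP400 version cannot be told apart. The 12 libraries were, for either line, 2 biological replicates each of input and of ChIP for H2A.Z and for H2A.Zac. Of 6 genes that mark the erythroid and megakaryocytic lineage of this line, 5 (TAL1, LMO2, KLF1, NFE2 and HBG1) had a listed H2A.Zac region within 1 kb of the TSS and GATA1 had none. Of 4 B and T cell genes, 1 (CD3E) had one, and of all 20046 protein-coding genes 12819 did. An H2A.Z region was listed there at 2 of the 6 and 1 of the 4 genes. These genes were chosen after values had been seen, and lists this short do not show cell identity for either mark.

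TIP60 combines the acetyltransferase of yeast NuA4 with the histone exchange motor of yeast SWR1. The motor swaps H2A-H2B dimers for dimers with the variant H2A.Z, and the enzyme adds acetyl groups to histone tails, those of H2A.Z among them. H2A.Z is typically found around the transcription start sites (TSSs) of active and poised genes. EP400 is its motor and scaffold, and TRRAP, which it shares with the SAGA coactivator, contacts transcription factors. The genes described here encode parts of the same complex, and the comparison shows where the marks at these genes differed between the lines.

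The authors merged the replicates of each mark and line and compared the lines along the genome. Each listed region carries 1 value, the log10 likelihood ratio of the comparison. Regions with a ratio of at least 3 were listed as higher in WT (lost in ΔTRRAP) or higher in ΔTRRAP (gained), and the others as unchanged. The ratio is a measure of evidence for a difference and not a fold change. No value per replicate is in the lists and library depth is unknown here, so neither a spread between replicates nor a test between the lines can be given. Wilson 95% confidence intervals of shares cover counting error only. They treat regions as independent, which neighboring regions may not be, so they can be too narrow. A lower signal in such bulk chromatin may be fewer cells or alleles with the mark or less of it in each, which cannot be told apart. Adjacent and overlapping regions can be pieces of 1 peak, so regions cannot be counted as peaks.

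In the 2-kb window around the TSS, H2A.Z changed at 3 of the 10 genes and H2A.Zac at 8, and the rest had only unchanged regions, as did 67.8% of all protein-coding genes with an H2A.Z region there and 23.6% of those with an H2A.Zac region. Over the TSS base itself, an unchanged region was listed at 10 genes for H2A.Z and at 9 for H2A.Zac, against 92.1 and 70.2% of all genes. For H2A.Z, 36 regions were listed at the 10 loci, of which 4 were lost, 6 gained and 26 unchanged. Over all H2A.Z regions, 19.8% were lost and 14.1% gained. The changed share at the 10 loci was 27.8% (15.8 to 44%), against 34.0% for all H2A.Z regions. For H2A.Zac, 46 regions were listed, of which 11 were lost, 14 gained and 21 unchanged, against 25.9% lost and 26.3% gained over all H2A.Zac regions. The changed share was 54.3% (40.2 to 67.8%), against 52.1% for all. Gained regions made up 60% (31.3 to 83.2%) of the changed H2A.Z regions and 56.0% (37.1 to 73.3%) of the changed H2A.Zac regions, against 41.6 and 50.4% genome-wide. All 4 intervals include the genome-wide share.

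**Figure D1:**
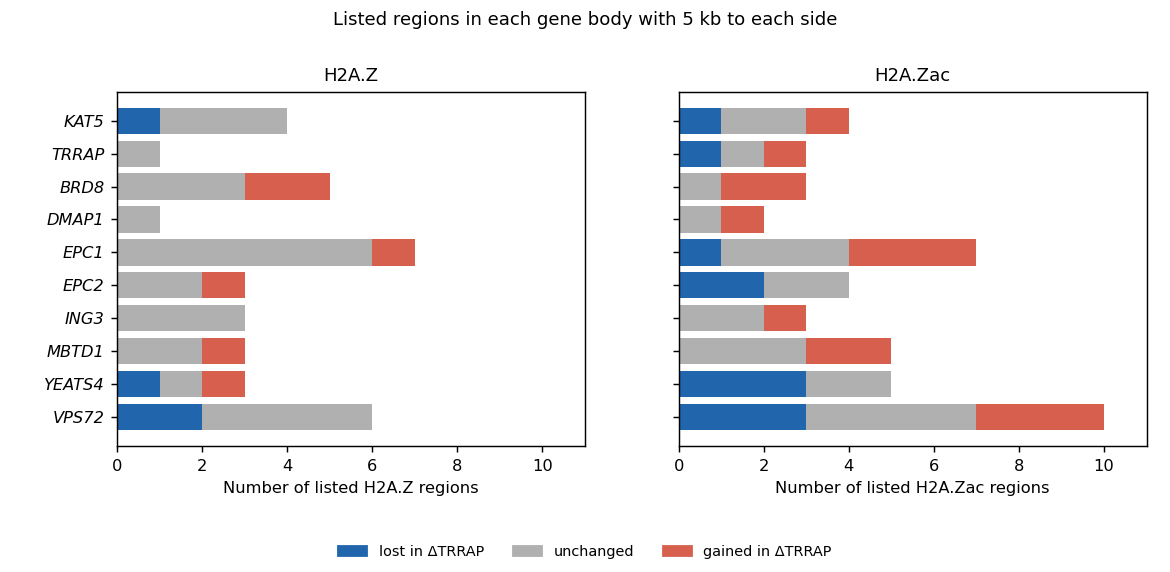
Number of listed H2A.Z regions (left) and H2A.Zac regions (right) over each gene body with 5 kb to each side, stacked by class (blue, lost in ΔTRRAP; gray, unchanged; red, gained in ΔTRRAP). VPS72 had most regions (16) and DMAP1 fewest (3), and every gene had at least 1 changed H2A.Zac region. Of all protein-coding loci with an H2A.Zac region, 53.5% had a lost and 68.0% a gained one. The share with at least 1 of either was not counted, so the count of genes has no genome-wide match.

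Measured in bases, unchanged chromatin was the larger part for both marks. At the 10 loci, unchanged regions took 25696 bp (H2A.Z) and 29474 bp (H2A.Zac). Lost regions took 1381 and 5353 bp, and gained regions 2624 and 8683 bp. Changed regions were also narrow, with median widths of 392.5 bp (H2A.Z) and 473 bp (H2A.Zac), against 800 and 1423 bp for the unchanged regions. Over all listed regions of any class the medians were 619 and 709 bp. Widths and summed bases by class were not compared genome-wide, so neither can be read as particular to the 10 loci. The number of regions per locus was 3 to 16, with a median of 8, against a median of 6 over the 16615 protein-coding loci that held any region. Lost H2A.Z was found at 3 of the 10 loci and gained H2A.Z at 5, against 27.8 and 30.3% of the protein-coding loci with an H2A.Z region. Lost H2A.Zac was found at 6 loci and gained H2A.Zac at 8, against 53.5 and 68.0% of the loci with an H2A.Zac region. These counts depend on the flanks, which hold several TSSs of other genes. Within the gene bodies alone, no H2A.Z region was lost and 1 was gained, and with flanks of 2 kb the gained share of changed H2A.Zac regions was 47.6%.

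In the 2-kb window centered on the canonical TSS, an unchanged H2A.Z region was present at 10 of 10 genes. H2A.Z was gained in this window at BRD8 and EPC2, lost at YEATS4, and only unchanged at the other 7. Over the 12461 protein-coding genes with an H2A.Z region in the window, 22.3% had a gained one, 10.5% a lost one and 67.8% only unchanged ones. H2A.Zac was gained in the window at 5 genes (TRRAP, BRD8, DMAP1, MBTD1 and VPS72) and lost at 3 (EPC1, EPC2 and YEATS4). At KAT5 and ING3 it was only unchanged. Of the 12819 protein-coding genes with an H2A.Zac region in the window, 57.3% had a gained one, 26.0% a lost one and 23.6% only unchanged ones. No gene of the 10 had both a gained and a lost H2A.Zac region in its window, against 6.91% of these 12819 genes. The shares of the 10 genes were close to those of all genes, and with 10 genes each step is large.

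**Figure D2:**
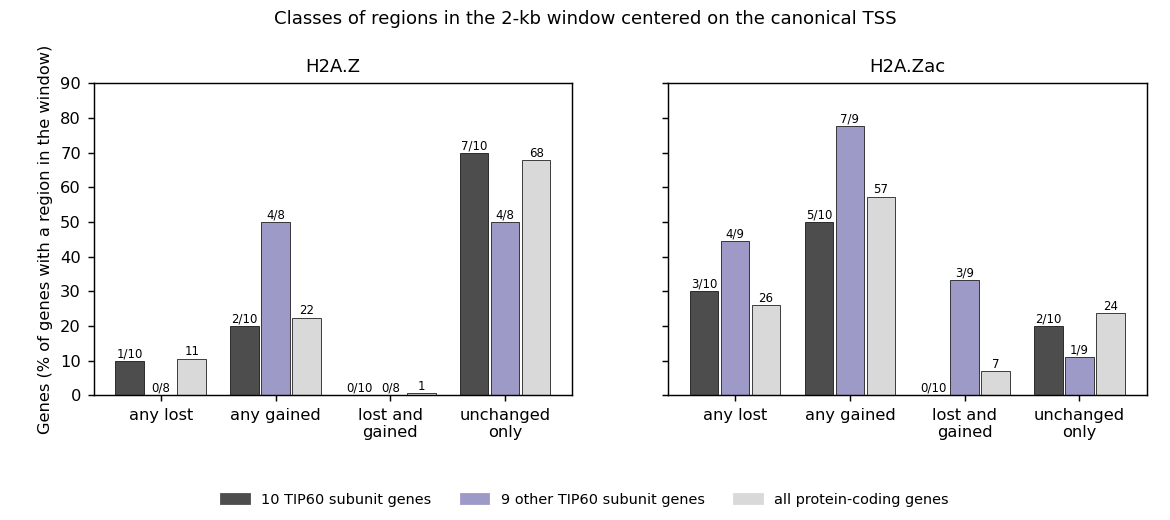
Share of genes (%) with a lost, a gained, a lost and a gained, or only unchanged regions in the 2-kb window centered on the canonical TSS, for H2A.Z (left) and H2A.Zac (right), over the genes with a listed region there. Bars carry the number of genes for the 10 subunit genes (dark) and the 9 other subunit genes (violet), and the percent for all protein-coding genes (gray). For H2A.Z, 7 of the 10 genes and 67.8% of all genes had only unchanged regions.

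The base of the TSS lay under an unchanged H2A.Z region at all 10 genes, against 92.1% of the 9000 protein-coding genes with an H2A.Z region over it. It lay under an unchanged H2A.Zac region at 9 of 10, against 70.2% of 11744. The exception was BRD8, whose TSS lay under a gained H2A.Zac region. At VPS72 a gained and an unchanged H2A.Zac region overlapped at the TSS. Regions over the TSS were 281 to 2362 bp wide in the case of H2A.Z (median 1408 bp) and 896 to 3247 bp in that of H2A.Zac (median 1532 bp). Over all protein-coding TSSs the medians were 1224 and 1149 bp.

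**Figure D3:**
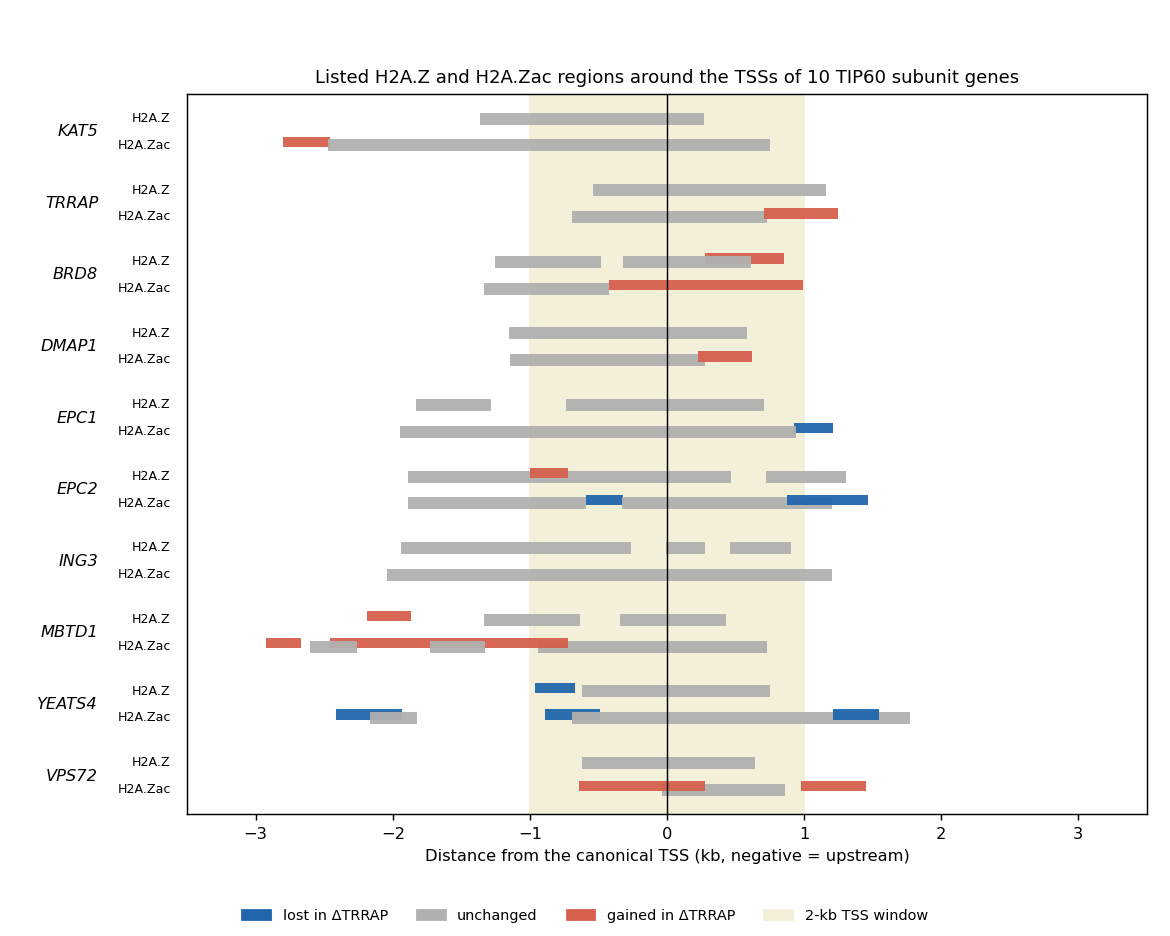
Listed regions within 3.5 kb of the canonical TSS of each gene, drawn to scale by distance (kb) in the direction of transcription, with 1 lane for H2A.Z and 1 for H2A.Zac (blue, lost in ΔTRRAP; gray, unchanged; red, gained in ΔTRRAP; shaded, the 2-kb window). Gray blocks cover the TSS in every H2A.Z lane, and colored blocks overlap gray ones, lie inside them or stand apart.

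The changed regions stood in several relations to the unchanged regions of their own mark. Of the 35, 15 partly overlapped an unchanged region, 2 touched one, 1 (the gained H2A.Zac region at MBTD1) held one whole, 4 lay wholly inside one and 13 lay apart from any. Over the 70883 changed regions of all lists, these shares were 36.6, 7.46, 2.81, 5.29 and 47.8%. Of the regions at the 10 loci, 22 pairs of the same mark and different class overlapped, by 12 to 457 bp. Regions of 2 classes can overlap in these lists, and such a pair can come from 1 peak.

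The likelihood ratios were mostly low. The 10 changed H2A.Z regions had a median ratio of 4.96 (range, 3.86 to 12.0), against 5.75 over all changed H2A.Z regions. The 25 changed H2A.Zac regions had a median of 5.54 (3.42 to 36.9), against 7.47. Of the 35 changed regions, 31 were at 8.85 or less. The other 4 reached at least 10, namely a lost H2A.Zac region within TRRAP, a gained region of each mark at the TSS of NME5 beside BRD8, and a gained H2A.Z region upstream of YEATS4. Ratios of at least 10 were thus found for 2 of 10 and 2 of 25 changed regions, against 10.7 and 32.5% of all changed H2A.Z and H2A.Zac regions.

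**Figure D4:**
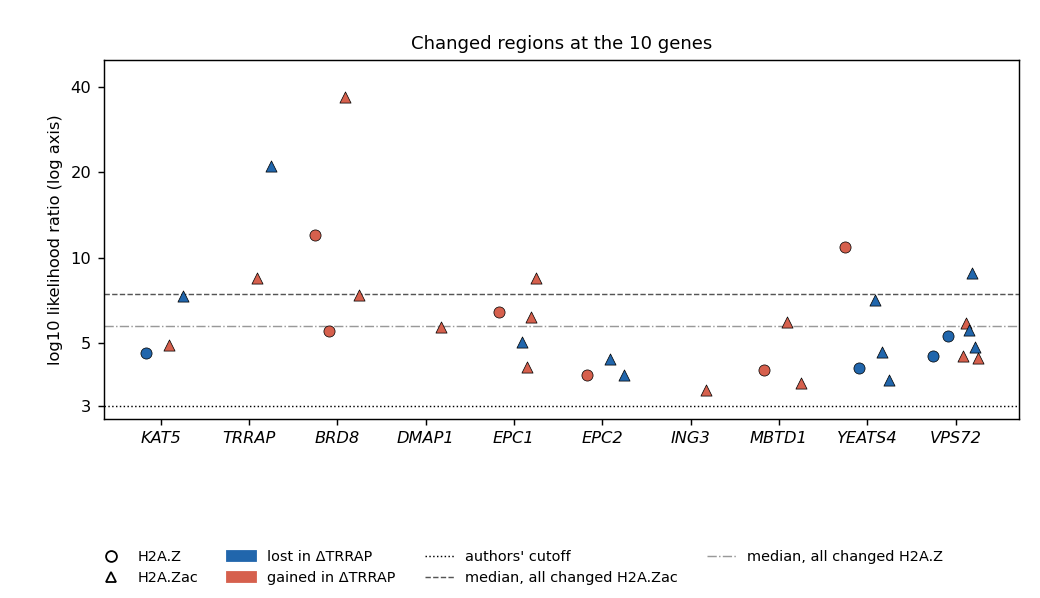
log10 likelihood ratio (log axis) of the 35 changed regions at the 10 genes, by gene (circles, H2A.Z; triangles, H2A.Zac; blue, lost in ΔTRRAP; red, gained in ΔTRRAP). The dotted line is the authors' cutoff of 3 and the broken lines are the medians over all changed regions (7.47 for H2A.Zac and 5.75 for H2A.Z). Only 4 points lie at 10 or above.

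TRRAP (chr7:98877933-99050831, plus strand, hg38) encodes the large pseudokinase-like scaffold that is missing from the ΔTRRAP complex. The gene record spans 172.9 kb and its canonical transcript has 73 exons, yet 4 regions were listed over the locus. The TSS (98878532) lay under an unchanged H2A.Z region of 1706 bp (98877991-98879696) and an unchanged H2A.Zac region of 1423 bp (98877839-98879261). A gained H2A.Zac region of 547 bp (98879238-98879784, ratio 8.49) followed in intron 1, with 83.9% of its length on unchanged H2A.Z. The fourth region was a lost H2A.Zac region of 1239 bp in intron 21 (98922252-98923490), 43.72 kb downstream of the TSS and 299 bp from the nearest exon. Its ratio of 21.2 was higher than that of 90.3% of the 24482 lost H2A.Zac regions. Under it no H2A.Z region, changed or unchanged, was listed. The central 200 bases of this intronic region are shown because it is the lost region with the highest ratio at the 10 genes (chr7:98922772-98922971, plus strand, hg38). Capitals mark matches to CCAAT (the NF-Y box, here on the minus strand) and AGATAA (letters bound by GATA factors, on the plus strand).
TRRAP intron 21: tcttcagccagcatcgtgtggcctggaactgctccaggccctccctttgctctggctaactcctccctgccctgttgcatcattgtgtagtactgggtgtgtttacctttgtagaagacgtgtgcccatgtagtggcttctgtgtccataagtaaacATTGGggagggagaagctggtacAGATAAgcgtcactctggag
The stretch has 52.5% GC and 3 CpG dinucleotides. The AGATAA letters, searched for after the values were seen because K562 cells depend on GATA factors, occur on either strand in the central 200 bases of 9.08% of lost, 11.6% of gained and 9.63% of unchanged H2A.Zac regions. CCAAT occurs in 20.1, 20.4 and 20.1%. The matches describe the sequence and do not show binding.

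The HAT module holds the acetyltransferase KAT5 (Tip60), the scaffold EPC1 or its paralog EPC2, and the reader ING3, a PHD finger protein that binds methylated H3K4. MBTD1, a reader of methylated H4, joins it through EPC1. At KAT5 (chr11:65711996-65719604, plus strand, 13 exons) the TSS (65712252) lay under unchanged regions of both marks, H2A.Z of 1638 bp (65710887-65712524) and H2A.Zac of 3232 bp (65709776-65713007). A gained H2A.Zac region of 345 bp (65709448-65709792, ratio 4.90) overlapped the upstream edge of the latter by 17 bp, 2.46 kb from the TSS. At the other end of the locus lost regions of both marks, H2A.Z (65721438-65721849, ratio 4.61) and H2A.Zac (65721567-65721872, ratio 7.31), lay upstream of the TSS of RNASEH2C, which encodes a ribonuclease H2 subunit. The regions closer to that TSS were unchanged. KAT5 itself therefore had no changed region in its body.

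ING3 (chr7:120950763-120977216, plus strand, 12 exons) had the widest region of the 10 genes, an unchanged H2A.Zac region of 3247 bp over its TSS (120948733-120951979). Beneath it 3 unchanged H2A.Z regions were listed, of 1684 bp (120948835-120950518), 281 bp (120950773-120951053) and 443 bp (120951240-120951682). The only changed region was a gained H2A.Zac region of 279 bp (120982128-120982406, ratio 3.42) near the 5S rRNA pseudogene RNA5SP240, of which 89 bp lay inside the 5-kb flank. This was the lowest ratio among the 35 changed regions.

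EPC1 and EPC2 were described side by side because they are paralogs for the same place in the complex. EPC1 (chr10:32267751-32378798, minus strand, 14 exons) has a pair of promoters, and the 5′ end of the gene record lies 31640 bp upstream of the canonical TSS. At the canonical TSS (32347158) H2A.Z of 1444 bp (32346448-32347891) and H2A.Zac of 2891 bp (32346219-32349109) were unchanged. At the downstream edge, in intron 1, a H2A.Zac region of 283 bp was lost (32345949-32346231, ratio 5.03). The antisense lncRNAs EPC1-AS1 and EPC1-AS2 start in the same unchanged regions. At the upstream promoter (annotated TSS 32378769 in RefSeq) the changed regions were gained ones. There 3 stretches of H2A.Zac were gained, at 32378096-32378752 (ratio 4.09), 32378909-32379433 (6.17) and 32379595-32380008 (8.49), together with H2A.Z at 32379520-32379914 (6.43). Unchanged H2A.Zac at 32376726-32378552 and 32379943-32381072 overlapped the first and the last of these stretches by 457 and 66 bp. The H2A.Z regions on both sides of this TSS (32377789-32378744 and 32378907-32379722) were unchanged. Lost and gained H2A.Zac at EPC1 thus lay at different promoters, beside unchanged H2A.Zac at both.

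The first bases outside annotated UTRs upstream of both EPC1 promoters are shown to set the promoter with a lost H2A.Zac region beside the one with gained regions, with those of EPC2 (minus strand at chr10:32347219-32347318 and chr10:32378799-32378898, plus strand at chr2:148644651-148644750; RefSeq, GRCh38.p14). Capitals mark matches to GGGCGG (the SP/KLF GC box) or CCAAT on either strand.
EPC1 canonical: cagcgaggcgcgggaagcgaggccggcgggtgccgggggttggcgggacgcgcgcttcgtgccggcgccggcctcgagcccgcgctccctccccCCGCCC
EPC1 upstream: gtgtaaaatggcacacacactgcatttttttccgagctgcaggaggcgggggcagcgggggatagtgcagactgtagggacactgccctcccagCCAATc
EPC2: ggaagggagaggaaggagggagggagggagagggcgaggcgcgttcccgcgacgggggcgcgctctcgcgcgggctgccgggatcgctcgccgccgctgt
The canonical EPC1 stretch has 84% GC and 19 CpG dinucleotides, the upstream one 58.0% and 3, and that of EPC2 77.0% and 16. Over the whole 300-base windows, from 250 bases before the TSS, GC was 74.3, 53.0 and 76.7%, against a median of 58.7% over 35116 RefSeq promoters. The canonical EPC1 window holds 4 GC boxes, at -204, -195, -176 and -66 from the TSS, and that of EPC2 holds 3, at -196, -190 and 42. The upstream EPC1 window holds none and has a CCAAT box at -35.

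At EPC2 (chr2:148644440-148787569, plus strand, 14 exons) all 7 regions lay in the TSS window. An unchanged H2A.Z region of 2362 bp (148642861-148645222), the widest H2A.Z region of the 10 genes, covered the TSS (148644751), and another of 588 bp (148645472-148646059) lay in intron 1. Within the first, 279 bp of H2A.Z were gained upstream of the TSS (148643752-148644030, ratio 3.86). H2A.Zac was unchanged at 148642862-148644160 and over the TSS at 148644422-148645953. Between these a short region of 273 bp was lost (148644161-148644433, ratio 4.38), and one of 593 bp was lost in intron 1 (148645628-148646220, ratio 3.85). The gained H2A.Z and lost H2A.Zac regions did not overlap. All 3 ratios were in the lowest 9.98% of their class, so the opposite classes rest on weak calls.

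MBTD1 (chr17:51177425-51260163, minus strand, 17 exons) starts 497 bp from UTP18, a gene for ribosomal RNA processing that is transcribed the other way. On the MBTD1 side H2A.Z of 777 bp (51259616-51260392) and H2A.Zac of 1669 bp (51259318-51260986) were unchanged over the TSS (51260049). Downstream of the UTP18 start, H2A.Z of 695 bp (51260686-51261380) was unchanged, with 88.3% of its length on gained H2A.Zac. This gained H2A.Zac region of 1742 bp (51260767-51262508, ratio 5.94) began on the UTP18 side and held a gained H2A.Z region (51261915-51262240, ratio 4.02). Unchanged H2A.Zac regions (51261379-51261775 and 51262307-51262653) overlapped this gained region by 397 and 202 bp. The unchanged H2A.Zac region over the MBTD1 TSS ran past the UTP18 start (51260546) and overlapped the same gained region by 220 bp. A further gained stretch of H2A.Zac lay farther out (51262721-51262974, ratio 3.60). The gain assigned to MBTD1 by its window therefore extended along the body of UTP18.

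BRD8 is the bromodomain subunit of the TINTIN module. BRD8 (chr5:138139770-138178953, minus strand, 27 exons) was the only gene of the 10 where both marks were gained within 1 kb of the canonical TSS (138178630). The gained H2A.Zac region of 1417 bp (138177638-138179054, ratio 7.36) covered the TSS and exons 1 and 2. The gained H2A.Z region of 578 bp (138177775-138178352, ratio 5.53) lay in intron 1. Unchanged H2A.Z of 938 bp (138178015-138178952) covered the TSS. The mitotic kinesin gene KIF20A starts 482 bp away in the other direction, and on its side H2A.Z (138179111-138179885) and H2A.Zac (138179055-138179965) were unchanged. The gained H2A.Zac region reached across most of the stretch between both starts, and the gained regions of both marks also lay within 1 kb of the KIF20A TSS.

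For either mark, the highest ratio at the 10 loci was found past the 3′ end of BRD8, at the TSS of NME5 (138139428), a gene of the nucleoside diphosphate kinase family. There 633 bp of H2A.Z (138138858-138139490, ratio 12.0) and 486 bp of H2A.Zac (138138963-138139448, ratio 36.9) were gained. These ratios were higher than those of 94.6% of gained H2A.Z and 97.5% of gained H2A.Zac regions. No unchanged or lost region was listed within 1 kb of this TSS, unlike at the 10 subunit TSSs. The pair counts among the gained regions of BRD8 only because of the flank. An unchanged H2A.Z region of 433 bp in intron 25 (138144010-138144442) was the only other region away from a TSS.

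DMAP1 ties EPC1 to actin and the actin-related protein in the ARP module. DMAP1 (chr1:44213455-44220681, plus strand, 10 exons) had the fewest regions. H2A.Z of 1733 bp (44212321-44214053) and H2A.Zac of 1427 bp (44212326-44213752) were unchanged over the TSS (44213471). H2A.Zac was gained over 390 bp at the downstream edge (44213701-44214090, ratio 5.67), of which 90.5% lay on the unchanged H2A.Z region. The upstream bases of DMAP1 are shown for their match to CCGGAAG, the ETS site, in capitals, beside those of YEATS4, where the marks were lost upstream of the TSS (plus strand at chr1:44213355-44213454 and chr12:69359610-69359709; RefSeq, GRCh38.p14).
DMAP1: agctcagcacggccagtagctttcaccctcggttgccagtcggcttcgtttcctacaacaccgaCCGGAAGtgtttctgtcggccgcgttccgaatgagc
YEATS4: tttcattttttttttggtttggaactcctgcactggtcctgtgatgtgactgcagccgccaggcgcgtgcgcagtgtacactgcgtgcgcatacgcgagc
The DMAP1 window holds this match at -52 and again at -12. KAT5 holds it as well, at -36 and -11, so that 2 of the 7 subunit genes with a RefSeq promoter window (KAT5, BRD8, DMAP1, EPC1, EPC2, MBTD1 and YEATS4) have it, against 10.3% of all promoters. The YEATS4 window holds none of the 8 motifs searched.

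Among the other motifs, GGGCGG was found in 3 of the 7 genes (KAT5, EPC1 and EPC2), against 45.0% of all promoters. CCAAT was found in 3 (DMAP1, EPC1 and MBTD1), against 34.6%, and the E-box CACGTG in 1 (KAT5), against 7.26%. None of the 7 had TGACGTCA (CRE, 1.85%), TTTCGCGC (E2F, 0.515%), or the exact letters searched for NRF1 (1.24%) and YY1 (0.849%). Both strands were searched, and none of the 8 motifs holds another.

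YEATS4 (GAS41), a reader of acylated lysines shared with the SRCAP complex, was the only gene of the 10 where H2A.Z was lost in the 2-kb window of the canonical TSS. The call was absent in a 1-kb window or at a ratio of at least 5, and with any TSS of a gene 2 genes had lost H2A.Z. At YEATS4 (chr12:69359710-69390870, plus strand, 7 exons) H2A.Z of 1372 bp (69359122-69360493) and H2A.Zac of 2472 bp (69359048-69361519) were unchanged over the TSS (69359743). Just upstream, 291 bp of H2A.Z (69358782-69359072, ratio 4.08) and 403 bp of H2A.Zac (69358850-69359252, ratio 4.63) were lost together. H2A.Zac was also lost 1.94 kb upstream (69357332-69357808, ratio 7.09) and within intron 1 (69360955-69361288, ratio 3.70). The first of these overlapped a further unchanged H2A.Zac region (69357577-69357923), and the intron 1 stretch lay wholly inside the unchanged one over the TSS. Farther upstream, 4.62 kb from the TSS, H2A.Z was gained near the start of the noncoding gene ENSG00000257764. This gained region of 736 bp (69354387-69355122) had no H2A.Zac region listed over it. Its ratio of 10.9 was higher than that of 92.5% of gained H2A.Z regions, and 413 of its bases lay inside the flank.

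VPS72 (YL-1), the chaperone that brings the H2A.Z-H2B dimer to the exchange motor in TIP60 and SRCAP, had 16 regions, of which 8 were changed. At the canonical TSS of VPS72 (chr1:151176304-151195321, minus strand, 6 exons, TSS 151190197) H2A.Z of 1260 bp was unchanged (151189554-151190813). H2A.Zac was gained over 921 bp across the TSS (151189919-151190839, ratio 5.89) and over 473 bp in intron 1 (151188744-151189216, ratio 4.51). An unchanged H2A.Zac region (151189338-151190233) overlapped the first. Upstream of a further annotated TSS, 5124 bp away at the 5′ end of the gene record, both marks were lost instead. The lost regions were H2A.Z at 151195859-151196248 (ratio 4.51), wholly inside an unchanged H2A.Z region of 1075 bp, and H2A.Zac at 151195822-151196319 (5.54) and 151196496-151196955 (8.85).

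PIP5K1A, a lipid kinase gene that starts 8355 bp from the canonical VPS72 TSS in the other direction, held both classes. H2A.Z (151197471-151197758, ratio 5.30) and H2A.Zac (151197176-151197662, ratio 4.85) were lost upstream of its TSS, and H2A.Zac was gained just inside the gene (151198592-151199014, ratio 4.41). Unchanged H2A.Zac lay between and around these regions, at 151195339-151195821, at 151196088-151196495 and over the PIP5K1A TSS at 151197674-151199647, where it held the gained region whole. The H2A.Zac regions within 1 kb of the PIP5K1A TSS thus included a lost and a gained one, unlike those of either VPS72 promoter.

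At the 10 loci, as genome-wide, H2A.Z of the same class lay under only a part of the changed H2A.Zac regions. Of 11 lost H2A.Zac regions, 4 had at least 25% of their length on lost H2A.Z, 4 on unchanged H2A.Z and 5 on none, where a region can count in more than 1 class. Genome-wide the shares were 28.6, 36.4 and 45.2%. Of 14 gained H2A.Zac regions, 3 lay on gained H2A.Z, 9 on unchanged H2A.Z and 4 on none, against 18.7, 45.9 and 43.1%. No changed H2A.Zac region lay on H2A.Z of the opposite class, which genome-wide held for 0.0204% of lost and 0.0322% of gained H2A.Zac regions. Of the lost H2A.Z regions, 4 of 4 (at KAT5, YEATS4 and VPS72) lay on lost H2A.Zac. Of 6 gained H2A.Z regions, 4 lay on gained H2A.Zac, 1 on unchanged H2A.Zac (EPC2) and 1 on none (YEATS4). Genome-wide 65.9% of lost and 65.8% of gained H2A.Z regions lay on H2A.Zac of the same class.

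By place, 3 of 18 H2A.Z and 10 of 21 H2A.Zac regions in the canonical TSS windows were changed, against 23.1 and 44.1% of the regions in the windows of all protein-coding genes. At other TSSs of the same genes, 2 of 5 and 4 of 7 were changed, and at the TSSs of neighboring coding genes 3 of 7 and 4 of 7. The closest references are the same 23.1 and 44.1% for TSS windows. Over all regions wherever they lie, the shares were 34.0 and 52.1%. Counts this small cannot be read against either. In the bodies away from any TSS of the gene, 4 regions were listed, in TRRAP, BRD8, EPC1 and YEATS4, and both H2A.Zac regions among them (TRRAP and YEATS4) were lost. Of the 22557 H2A.Zac regions in protein-coding gene bodies and more than 1 kb from the TSSs of such genes, 27.1% were lost, and 2 regions are too few to be read against this share. Away from the TSSs, no further region of either mark was listed in the bodies of the 10 genes. Just beyond the 5-kb flank lay unchanged H2A.Zac and H2A.Z 5.18 and 5.24 kb from KAT5, unchanged H2A.Z 6.35 kb from BRD8, lost H2A.Z 6.68 kb from TRRAP (ratio 5.50) and gained H2A.Z 6.70 kb from BRD8 (5.01). Farther out, within 10 kb, lay lost H2A.Z 7.8 kb from EPC1 (6.4), gained H2A.Zac 9.68 kb from MBTD1 (8.16) and otherwise only unchanged regions.

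The genomic surroundings of the genes were mixed in class. The genome was cut into fixed 5-Mb windows, so that a gene can lie near the edge of its own. In the window that holds each gene, the gained share of changed H2A.Z regions was between 25.9% (MBTD1) and 59.1% (BRD8), and that of changed H2A.Zac regions between 40% (EPC2) and 69.2% (ING3). The interval left out the genome-wide share for H2A.Z only at BRD8 (49 to 68.6%). For H2A.Zac it did so at DMAP1 (51.2 to 67.0%), ING3 (55.7 to 80.1%) and VPS72 (52.4 to 65.5%), in each case above it. Gained regions of both marks were found at BRD8, EPC1 and MBTD1, whose windows had gained shares of H2A.Z of 59.1, 52.1 and 25.9%. How many of all protein-coding loci had gained regions of both marks was not counted. The part of the windows in the changes at the genes was not tested.

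**Figure D5:**
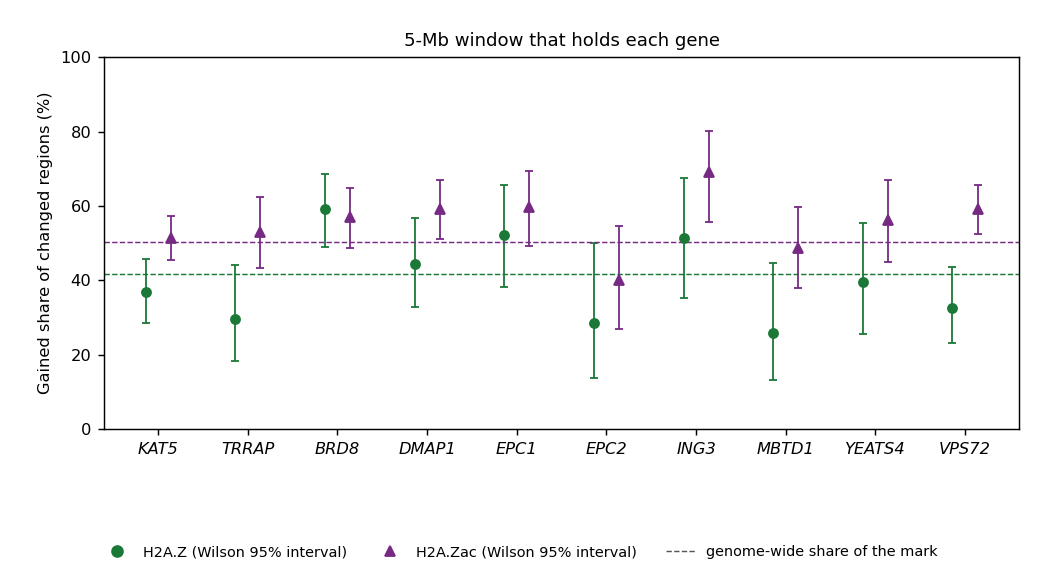
Gained share (%) of the changed H2A.Z (circles) and H2A.Zac (triangles) regions in the 5-Mb window that holds each gene, with Wilson 95% confidence intervals (bars). Dashed lines are the genome-wide shares of the same marks (41.6 and 50.4%). All points lie between 25.9 and 69.2%.

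The other 9 subunit genes, EP400, RUVBL1, RUVBL2, ACTL6A, ACTB, MORF4L1, MORF4L2, MRGBP and MEAF6, gave 111 regions and are given for comparison only. Of 43 H2A.Z regions 6 were lost and 6 gained, and of 68 H2A.Zac regions 19 were lost and 13 gained. The changed shares were 27.9% (16.7 to 42.7%) and 47.1% (35.7 to 58.8%), and these intervals overlap those of the 10 genes and include the shares of 34.0 and 52.1% over all regions. Gained H2A.Zac lay in the TSS window at 7 of 9 genes and lost H2A.Zac at 4, with both at RUVBL1, ACTB and MORF4L1, against 57.3, 26.0 and 6.91% of all protein-coding genes. At EP400, the gene that carries the degron, gained H2A.Zac covered the TSS (chr12:131949514-131951522, ratio 11.2). H2A.Zac was lost over exon 2 (131960661-131961071, ratio 6.37), and both marks were lost over exon 53 (H2A.Zac 132077347-132077691, ratio 13.3, and H2A.Z 132077412-132077692, ratio 8.71). Outside coding sequence, H2A.Zac was also lost upstream of EP400 (131947347-131948046, ratio 8.50) and past its 3′ end (132083638-132083971, ratio 3.31). Gained there were H2A.Z near the TSS (131950103-131950917, ratio 4.74) and H2A.Zac past the 3′ end (132084303-132085044, ratio 10.6). Coding sequence made up 411 of 411, 270 of 345 and 259 of 281 bp of the 3 lost regions over exons. Reads from the exogenous EP400 copies and from the tagged gene cannot be told apart over coding exons, so these regions may not describe the chromatin of the endogenous gene. Some of these genes lay in windows with nearly 1 class, with 0 of 58 changed H2A.Z regions gained in that of MRGBP, 11 of 222 in that of RUVBL2 and 19 of 19 in that of MORF4L2. None of the 10 genes described above lay in such a window. The inputs were not analysed here, so a difference in DNA copy number between the clones and a difference in the mark cannot be told apart from these lists.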

How the data were processed

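H2A.Z and H2A.Zac ChIP-seq reads were aligned by the authors to hg38 with Bowtie2 2.4.5 and compared between the lines with MACS2 2.2.7.1 bdgdiff after replicates had been merged (minimum length 250, maximum gap 150, cutoff 3). They kept regions lying to at least 25% in reproducible peaks (IDR, 0.05 or less). The score deposited with each region is the log10 likelihood ratio of this comparison. It was used as deposited, and no replicate, input or signal values were analysed here, so no depth per sample can be given.

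Regions were matched to GENCODE release 44 (release 32 in the paper) as any overlap with the gene body and 5-kb flanks, and the overlaps were checked with simulated intervals and with bedtools 2.31.1, which differed at 0 of 20046 loci. Coordinates are 1-based. Motifs were searched on both strands of RefSeq promoter windows, and 7 of the 10 genes matched; TRRAP, ING3 and VPS72 had no entry. Python 3.11.15, pandas 2.3.3, scipy 1.17.1 and samtools 1.23.1 were used. The subunit genes, the other subunits and the lineage genes were chosen with earlier results of these data known, and AGATAA and the lineage genes after values had been seen. All subunit genes, neighboring genes with a TSS in a locus and within 1 kb of a region, the changed region of highest ratio per mark and class at each gene, and all regions in the TSS windows were named. Alternatives were other flanks, TSS windows and TSS definitions, likelihood ratio cutoffs of 5 and 10, merged regions, widths of at least 500 bp, other overlaps, base pairs and 2-Mb windows.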

Additional observations from a re-analysis of the deposited data

How the results depend on the processing

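No paired analysis was possible because the lists hold 1 comparison of merged replicates per mark and no value per replicate, and for the same reason no replicate could be left out. For 22 counts and shares, 106 alternative values were made. Of these, 71 stayed within 1.5 times the count or, for shares of regions, within the Wilson interval of the share. Beyond this 34 moved, and 1 passed to the other side of an even split of gained and lost regions. It was the gained share of changed H2A.Zac regions, 56.0% with 5-kb flanks and 47.6% (10 of 21) with 2-kb flanks. The latter value still lay inside the Wilson interval of the former (37.1 to 73.3%). Counts fell where fewer regions were taken in by construction. With gene bodies alone, lost and gained regions numbered 0 and 1 for H2A.Z (gained share 100%) and 4 and 6 for H2A.Zac, lost H2A.Z was at 0 loci, gained H2A.Z at 1 and gained H2A.Zac at 5. With 10-kb flanks, lost H2A.Z was at 5 loci. At a ratio of at least 5, H2A.Z kept 1 lost region, H2A.Zac 6 lost and 8 gained, lost and gained H2A.Z were at 1 and 3 loci, and the TSS windows held lost H2A.Z at 0 genes, gained H2A.Z at 1 and lost H2A.Zac at 1. At a ratio of at least 10, H2A.Z had 0 lost and 2 gained regions (100% gained) and H2A.Zac 1 and 1. With widths of at least 500 bp, H2A.Z had 0 lost and 3 gained (100%) and H2A.Zac 2 and 6 (75.0%). With a 1-kb TSS window, lost H2A.Z was at 0 genes, gained H2A.Z at 1 and gained H2A.Zac at 3. With the 5′ end of the gene record or any TSS of the gene, lost H2A.Z was at 2 genes. With 2-Mb windows, the H2A.Z interval left out the genome-wide share at 2 genes. Shares of 100% rest on 1 to 3 regions. Depth is unknown here, so a region absent from the lists is not shown to lack the mark.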
